A study of Homo sapiens with 12 samples.

Results

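The genes described are 9 genes of pulmonary surfactant and the alveolar type 2 cell: the surfactant protein genes SFTPA1, SFTPA2, SFTPB, SFTPC and SFTPD, the lipid transporter gene ABCA3, the protease gene NAPSA, the lamellar body membrane gene LAMP3 and the transcription factor gene NKX2-1. They were picked by symbol out of 20003 genes in the expression table, after surfactant genes had been seen to be higher with ZNF263 in one of the lines, so the differences given for them below describe the libraries and carry no test. RNA-seq was available from PC9, HCC827 and H1975, established human lines of non-small-cell lung cancer that carry EGFR mutations. Titles of the samples write each line's name with OR attached, and no label says what OR stands for. Each line had been given either a vector that overexpresses ZNF263, a zinc finger transcription factor, or a control vector, with 2 libraries per group, which makes 12 libraries in 6 groups. All of the cells, the controls included, were grown in DMEM and had been exposed to osimertinib, an EGFR inhibitor, in a stepwise manner. The sources used here do not name the promoter of the vector or say whether a line is a clone or a pool. Libraries of a group are numbered in the labels, which do not call them separate cultures, and the p-values cover no more than the spread among libraries, possibly a technical one.

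Surfactant is a film of lipid and protein that keeps the air spaces of the lung from collapsing. Alveolar type 2 cells make it, store it in lysosome-related organelles called lamellar bodies, and secrete it. SFTPB and SFTPC encode small hydrophobic proteins of the film that are cut from larger precursors, a step in which napsin A, the product of NAPSA, takes part. SFTPA1, SFTPA2 and SFTPD encode collectins, lectins of innate defence. ABCA3 pumps phospholipid into the lamellar body, LAMP3 sits in its membrane, and NKX2-1, also called TTF-1, is a transcription factor that binds the promoters of surfactant genes. NKX2-1 and NAPSA are also stained for in the diagnosis of lung adenocarcinoma.

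The sequences before the transcription starts of SFTPA1, SFTPA2 and SFTPB are shown because these genes had the highest ratios between ZNF263 and control libraries of HCC827 among the members with at least 1 FPKM there (fragments per length of gene and size of library). They are the reference sequences of RefSeq (GRCh38.p14), written 5′ to 3′ on the strand of the gene, with 250 bases before the start for SFTPA1 (plus strand, chr10:79610689-79610938) and SFTPA2 (minus strand, chr10:79560408-79560657). Capitals mark CTCAAG, a string of letters with the CAAG core known from NKX2-1 sites, and GTAAACA, the reverse complement of TGTTTAC, a string known from sites of FOXA factors. For SFTPB (minus strand, chr2:85668252-85668449) a stretch of 198 bases is given. It leaves out the bases next to the start because longer transcripts hold an exon there. This stretch holds none of the full strings searched, but the CAAG core alone does occur in it. Its opposite strand also reads TGTTTGT, which shares the TGTTT of TGTTTAC and was not among the strings searched. The stretch belongs to the downstream of the starts listed for SFTPB, and the bases before the upstream start are not printed.
SFTPA1: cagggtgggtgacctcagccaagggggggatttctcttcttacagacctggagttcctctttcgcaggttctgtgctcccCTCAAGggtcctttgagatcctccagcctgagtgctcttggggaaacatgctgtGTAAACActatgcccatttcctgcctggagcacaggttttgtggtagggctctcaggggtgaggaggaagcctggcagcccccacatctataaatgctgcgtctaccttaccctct
SFTPA2: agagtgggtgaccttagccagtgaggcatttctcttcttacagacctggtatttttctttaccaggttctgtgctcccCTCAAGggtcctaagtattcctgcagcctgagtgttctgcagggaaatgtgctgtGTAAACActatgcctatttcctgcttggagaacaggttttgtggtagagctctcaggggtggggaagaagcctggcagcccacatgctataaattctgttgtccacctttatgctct
SFTPB: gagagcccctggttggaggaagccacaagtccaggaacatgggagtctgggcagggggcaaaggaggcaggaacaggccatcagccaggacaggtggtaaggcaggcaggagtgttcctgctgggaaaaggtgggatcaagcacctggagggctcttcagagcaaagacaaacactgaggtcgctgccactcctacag

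Of the 9 genes, 7 had an entry in the promoter table, with 11 windows in all (SFTPC and LAMP3 had none), and all 250 bases before the start were searched in each window, printed or not. CTCAAG stood between 170 and 165 bases before the start in SFTPA1 and between 172 and 167 bases before it in SFTPA2. TGTTTAC stood on the opposite strand, between 116 and 110 bases before the start in SFTPA1 and between 117 and 111 bases before it in SFTPA2. The upstream sequences of this gene pair are near copies, with 213 of 254 aligned positions the same (83.9%), so the shared strings are not independent of each other. Searched on both strands, CAAGTG or CTCAAG occurred in 4 of the 11 windows, those of SFTPA1, SFTPA2, NAPSA and NKX2-1, against 18.3% of 35116 promoter windows of the same length. TGTTTAC or TGTTTGC also occurred in 4 of the 11 windows, those of SFTPA1 and SFTPA2 and both windows of NKX2-1, against 6.09% of all promoter windows. GGAGGAGG, a repeat known from ZNF263 sites, was in 0 of the 11 windows and in 9.45% of all of them. These are matches of letters and not binding sites, and a missing match says only that these letters are not in the window.

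The count of reads in genes, recovered from the whole-number steps of the deposited values, lay between 16976552 and 19853695 in the PC9 libraries, between 16853940 and 17666096 in HCC827 and between 31324507 and 33860735 in H1975. A count of 0 in a library was taken to allow up to 3 reads, a bound that is the same in every library and covers counting error only. ZNF263 itself was higher in both ZNF263 libraries of every line, and by the least in HCC827. Its values were 9.55 and 9.11 FPKM in the controls of PC9 against 39.3 and 39.0 with ZNF263 (log2 difference 1.96 ± 0.06, SE; limma adjusted p = 2.83e-09), 13.2 and 11.8 against 19.6 and 19.8 in HCC827 (0.62 ± 0.06; limma adjusted p = 4.17e-05), and 10.2 and 9.63 against 39.1 and 39.8 in H1975 (1.89 ± 0.06; limma adjusted p = 5.95e-11). Reads of the vector and of the cell's own gene are not told apart in these values. Differences are given throughout as ZNF263 minus control on the log2(FPKM + 1) scale, on which changes at low values come out too small. PC9 values rest on other gene lengths than those of HCC827 and H1975, which bears on levels set side by side across lines. The SE of a gene is 1 value for all 3 lines, from a spread shared by the 6 groups. SFTPB, SFTPA1 and SFTPA2 were at or near 0 in PC9 and H1975, so their SE understates the spread of their HCC827 libraries.

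In the control libraries the 3 lines held different sets of these genes. HCC827 was the line with most of them, led by NAPSA at 142 ± 19.9 FPKM (SD, n = 2) and NKX2-1 at 132 ± 2.81 FPKM, followed by SFTPB at 10.6 ± 0.246, ABCA3 at 4.11 ± 0.27, SFTPA2 at 2.28 ± 0.284, SFTPA1 at 1.98 ± 0.369 and LAMP3 at 1.66 ± 0.012 FPKM. The NAPSA and NKX2-1 levels differ by less than the spread of NAPSA, and SFTPA1 differs from SFTPA2 and from LAMP3 by less than its own spread. H1975 had ABCA3 at 18.0 ± 0.942, NKX2-1 at 5.39 ± 0.987 and LAMP3 at 2.38 ± 0.555 FPKM, with all other members under 1 FPKM in its controls. PC9 had ABCA3 at 4.18 ± 0.0969 FPKM and no other member above 1 FPKM in any library. The name alveolar type 2 therefore describes the genes and not the cells: SFTPC, the most specific marker of that cell type, was listed at 0 in all 6 control libraries, and SFTPD stayed under 0.5 FPKM in all 12 libraries.

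**Figure D1:**
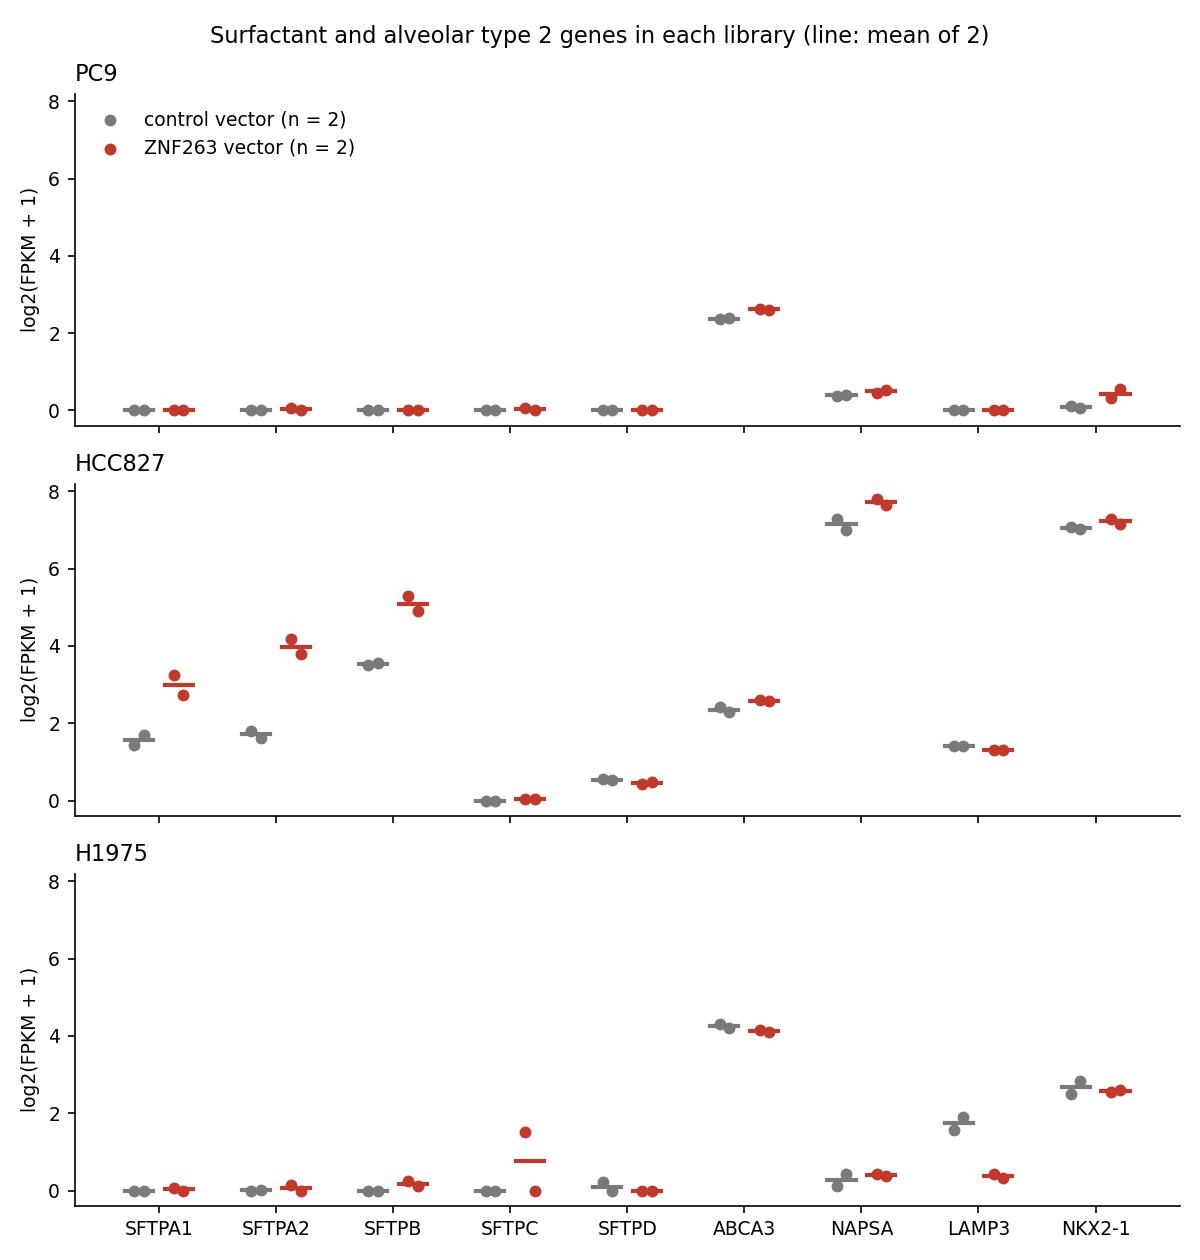
Level of each of the 9 genes as log2(FPKM + 1) on the vertical axis, with 1 panel per line, grey points for control and red points for ZNF263 libraries, and a short line at the mean of 2. In HCC827 the red points of SFTPA1, SFTPA2 and SFTPB lie above the grey ones, whereas PC9 has values near 0 for every gene but ABCA3.

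Across all genes tested, limma called 7.21% higher and 4.12% lower with ZNF263 in PC9, 13.0% higher and 6.44% lower in HCC827, and 32.1% higher and 32.1% lower in H1975. In HCC827 the share of calls that were higher was 66.9%, and it was 51.5% after median-of-ratios scaling and 50.3% after quantile normalization of the line. A value of at least 1 FPKM in 2 of the 12 libraries was needed for a gene to be tested, which 7 of the 9 members reached and SFTPC and SFTPD did not. Among these 7, 5 were called higher in HCC827 (SFTPA1, SFTPA2, SFTPB, ABCA3 and NAPSA), 2 were called higher in PC9 (ABCA3 and NKX2-1) and 1 was called lower in H1975 (LAMP3). Because the members were chosen on these contrasts, nothing is read from those counts. The same holds for each call of a member given below, kept or lost, which describes the fit and does not test the gene.

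SFTPB had the highest level of the surfactant protein genes in HCC827 and was about 3 times as high with ZNF263. Its values were 10.4 and 10.8 FPKM in the control libraries (707 and 697 reads) and 38.2 and 28.8 FPKM in the ZNF263 libraries (2523 and 1912 reads). Both ZNF263 libraries lay well above both controls, with replicate 1 the higher of the pair by a factor of 1.32. The ratio of the group means was 3.16. The log2 difference was 1.56 ± 0.11 (SE, shared by the lines), between 1.36 and 1.75 when any 1 of the 4 libraries was left out. In bulk RNA a larger share of cells with the transcript and more transcript per cell cannot be told apart.

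SFTPA2 had the highest ratio of any member in HCC827. It stood at 2.48 and 2.08 FPKM in the control libraries (120 and 96 reads) and at 17.0 and 12.7 FPKM in the ZNF263 libraries (801 and 603 reads), a ratio of means of 6.51 and a log2 difference of 2.26 ± 0.11. SFTPA1, its neighbour on chromosome 10, stood at 1.72 and 2.24 FPKM (74 and 92 reads) against 8.41 and 5.63 FPKM (353 and 237 reads), a ratio of 3.54 and a log2 difference of 1.41 ± 0.13. The groups did not overlap for either gene, and replicate 1 was again the higher of the ZNF263 libraries. The longest coding transcripts of the pair have 93.2% of aligned letters in common, and 18.7% of the 50-base windows of SFTPA1 also occur in SFTPA2, so how reads were divided between them is uncertain. Their summed level was 4.21 and 4.33 FPKM in the controls and 25.4 and 18.4 FPKM with ZNF263.

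The proportions among these genes differed between the groups of HCC827. SFTPB was 2.48 and 2.49 times the sum of SFTPA1 and SFTPA2 in the control libraries and 1.50 and 1.57 times that sum in the ZNF263 libraries. NKX2-1 was 12.9 and 12.1 times the level of SFTPB in the controls and 4.02 and 4.95 times with ZNF263. In both ratios the ZNF263 libraries lay below the controls without overlap, which restates the differences of these genes and is no separate result. SFTPA2 was 1.44 and 0.928 times SFTPA1 in the controls and 2.02 and 2.26 times with ZNF263, subject to the same doubt about the division of reads.

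NAPSA, whose product helps to cut the SFTPB and SFTPC precursors, had the highest group means of the members in HCC827, with NKX2-1 close to it in the controls. It stood at 156 and 128 FPKM in the control libraries (4298 and 3361 reads) and at 223 and 198 FPKM with ZNF263 (6014 and 5350 reads). The groups did not overlap, but the controls were themselves 1.22-fold apart. The ratio of means was 1.49, with a log2 difference of 0.57 ± 0.11, between 0.43 and 0.72 without any 1 library. NAPSA was not called without ZNF263 replicate 1 (0.49), and it was called without each of the other libraries. It also missed the threshold with a pseudocount of 0.1 FPKM (0.58).

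ABCA3 differed by a small amount in the same line. Its HCC827 values were 4.30 and 3.92 FPKM in the controls (513 and 446 reads) and 5.04 and 4.96 FPKM with ZNF263 (586 and 579 reads), a ratio of 1.22 and a log2 difference of 0.23 ± 0.07. Although the groups did not overlap, its call was lost without ZNF263 replicate 1 (0.22), without ZNF263 replicate 2 (0.24) or without control replicate 2 (0.18), and also under both rescalings of the line.

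NKX2-1, in contrast to the surfactant genes, was at nearly the same level in all HCC827 libraries. It stood at 134 and 130 FPKM in the controls (5756 and 5329 reads) and at 153 and 143 FPKM with ZNF263 (6426 and 5993 reads). The ratio of means was 1.12 and the log2 difference 0.16 ± 0.10, which was not called. Both ZNF263 libraries were above both controls, and replicate 1 was the higher one here too. LAMP3 was slightly lower, at 1.67 and 1.65 FPKM (180 and 170 reads) against 1.45 and 1.47 FPKM (153 and 155 reads), a log2 difference of -0.11 ± 0.09 that was not called.

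SFTPD and SFTPC were near the limit of detection in HCC827. SFTPD had 11 and 10 reads in the controls and 8 and 9 with ZNF263, or 0.468 and 0.446 against 0.349 and 0.391 FPKM. SFTPC was listed at 0 in both controls and at 0.0339 and 0.0337 FPKM with ZNF263, for which the smallest whole number is 1 read in each library. No difference in SFTPC was detectable in HCC827 at this depth.

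**Figure D2:**
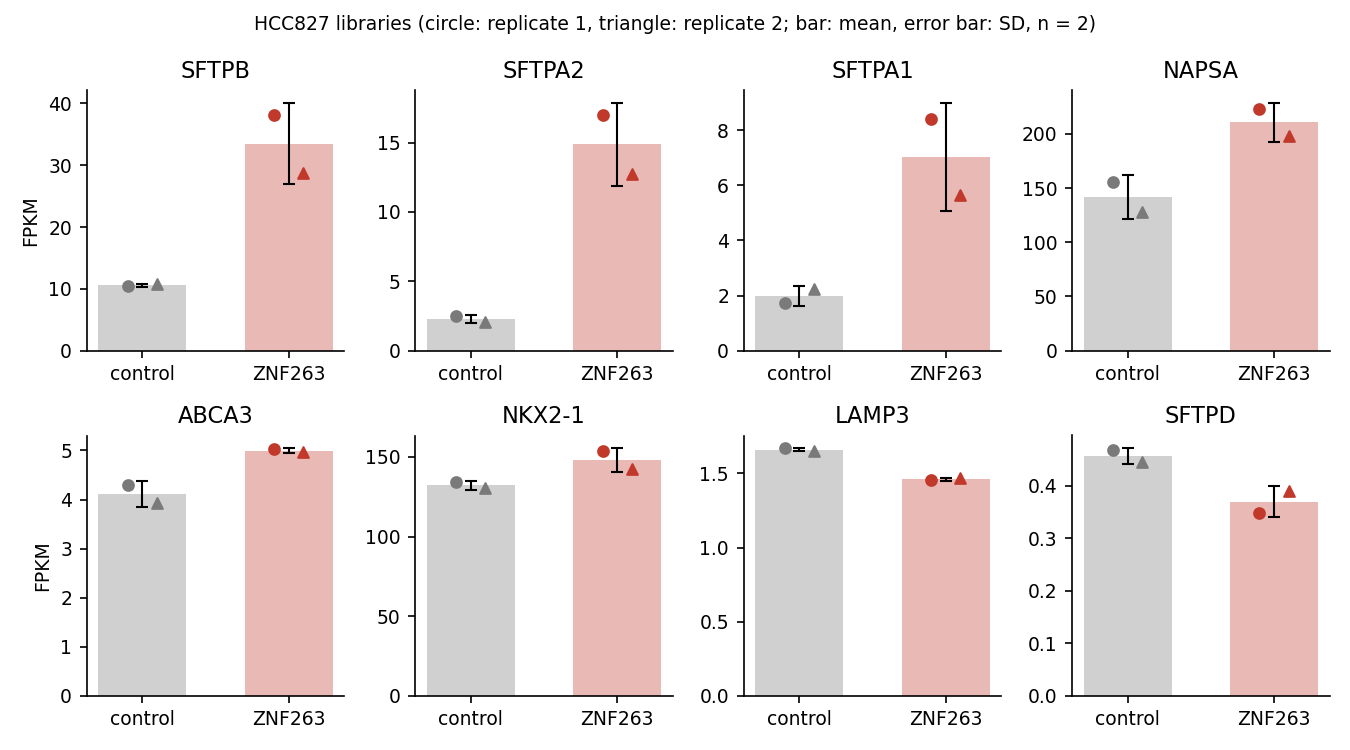
FPKM on the vertical axis, from 0, of the 8 members with more than 1 read in a library of HCC827, with bars at the group mean, error bars of 1 SD (n = 2), circles for replicate 1 and triangles for replicate 2. SFTPB, SFTPA2 and SFTPA1 show bars 3.16, 6.51 and 3.54 times as high with ZNF263, whereas the NKX2-1 bars differ 1.12-fold and those of LAMP3 and SFTPD are lower.

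In H1975 the member with the largest difference was LAMP3, and it was lower with ZNF263. LAMP3 stood at 1.98 and 2.77 FPKM in the control libraries (409 and 528 reads) and at 0.340 and 0.250 FPKM with ZNF263 (69 and 51 reads). Both ZNF263 libraries lay far below both controls. The group mean with ZNF263 was 0.124 times that of the controls, and the log2 difference was -1.37 ± 0.09, between -1.54 and -1.21 without any 1 library.

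ABCA3 was most abundant in H1975, at 18.7 and 17.3 FPKM in the controls (4254 and 3655 reads) and at 16.9 and 16.3 FPKM with ZNF263 (3784 and 3673 reads). The ZNF263 libraries were below both controls, by a log2 difference of -0.11 ± 0.07 that was not called. NKX2-1 was at 4.70 and 6.09 FPKM against 4.86 and 5.09 FPKM, with overlapping groups and a log2 difference of -0.09 ± 0.10. NAPSA was at 0.0759 and 0.349 FPKM against 0.347 and 0.287 FPKM, also with overlapping groups, on 4 to 18 reads.

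The genes that stood highest with ZNF263 in HCC827 were close to absent in H1975. SFTPB had 0 reads in both H1975 controls and 24 and 10 reads with ZNF263, or 0.188 and 0.0780 FPKM, which is under 1% of its level in HCC827 with ZNF263. SFTPA2 had 0 and 1 reads in the controls and 10 and 0 with ZNF263, and SFTPA1 had 0 and 0 against 4 and 0. SFTPC reached 1.85 FPKM (105 reads) in ZNF263 replicate 1 and was listed at 0 in the other 3 libraries, while SFTPD had 7 reads in control replicate 1 and 0 in the others. Hence replicate 1 of the ZNF263 group held the most reads of each of SFTPA1, SFTPA2, SFTPB and SFTPC in H1975, and only SFTPB had reads in both ZNF263 libraries. Without that library, SFTPB alone of the 4 had reads with ZNF263 (log2 difference 0.11), and the mean with ZNF263 of the others was 0.

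In PC9, ABCA3 was the only member above 1 FPKM. It stood at 4.12 and 4.25 FPKM in the controls (537 and 584 reads) and at 5.17 and 5.07 FPKM with ZNF263 (623 and 633 reads). The groups did not overlap, the ratio of means was 1.22, and the log2 difference was 0.24 ± 0.07, about the same size as in HCC827. The PC9 call of ABCA3 was lost when any 1 of the 4 libraries was left out (differences of 0.22 to 0.26).

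NKX2-1 was barely present in PC9, at 0.0809 and 0.0384 FPKM in the controls (4 and 2 reads) and at 0.241 and 0.465 FPKM with ZNF263 (11 and 22 reads). The ZNF263 libraries were above both controls, but the higher of them held 22 reads and a level far under those of the other lines. The log2 difference was 0.35 ± 0.10, and it was called without ZNF263 replicate 1 (0.47) but not without ZNF263 replicate 2 (0.23), control replicate 1 (0.38) or control replicate 2 (0.32). NAPSA had between 11 and 16 reads in each library, LAMP3 had 1 read in 1 control library and 0 in the others, and SFTPA1, SFTPB and SFTPD were listed at 0 in all 4. SFTPA2 and SFTPC were each listed above 0 in 1 ZNF263 library alone, at 0.0395 and 0.0462 FPKM. PC9 therefore gave no level from which a difference in the surfactant protein genes could be read.

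**Figure D3:**
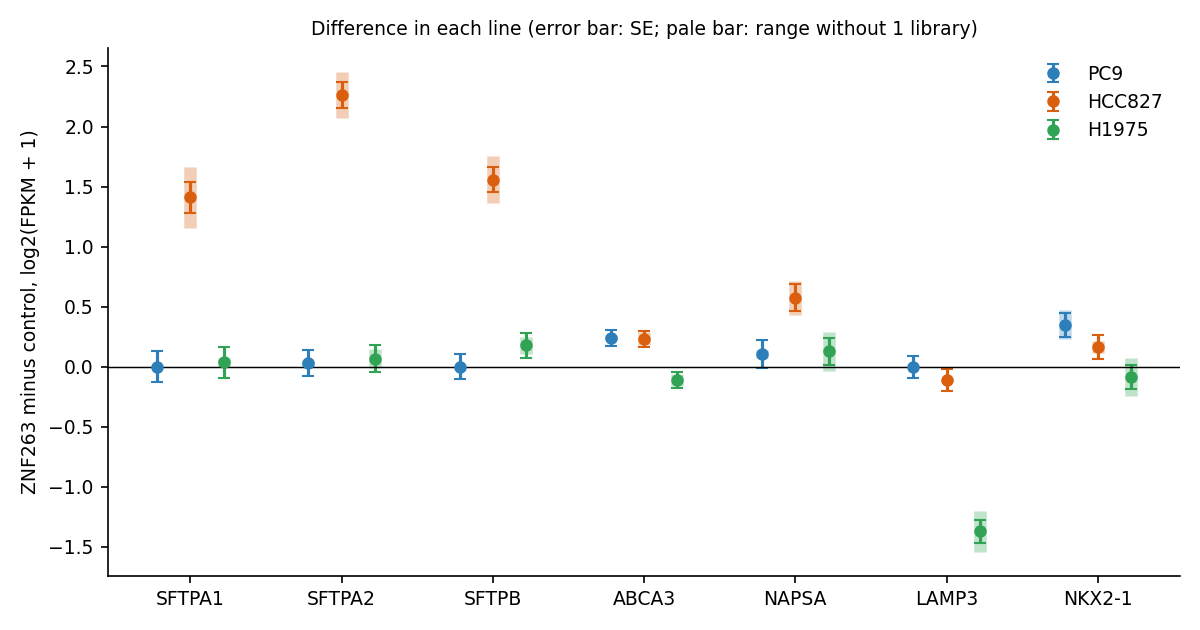
Difference between ZNF263 and control on the log2(FPKM + 1) scale for the 7 members tested, coloured by line. Error bars are 1 SE, shared by the lines, and pale bars give the range when 1 library is left out. The HCC827 points of SFTPA1, SFTPA2 and SFTPB lie between 1.41 and 2.26, the H1975 point of LAMP3 at -1.37, and the other differences between -0.11 and 0.57.

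The members lie on 7 chromosomes, and SFTPA1, SFTPA2 and SFTPD share chromosome 10. In GRCh38 (GENCODE 29) SFTPA2 spans 79555852 to 79560402 on the minus strand, SFTPA1 79610939 to 79615455 on the plus strand, and SFTPD 79937740 to 79982614 on the minus strand. SFTPB spans 85657314 to 85668741 on chromosome 2, LAMP3 183122213 to 183163839 on chromosome 3, NKX2-1 36516392 to 36521149 on chromosome 14, ABCA3 2275881 to 2340746 on chromosome 16 and NAPSA 50358477 to 50365830 on chromosome 19, all on the minus strand. The 20 nearest tested genes had a median log2 difference in HCC827 of -0.02 around SFTPA1 and SFTPA2, 0.06 around SFTPB and 0.06 around NAPSA, each close to the median of 0.04 over all genes tested in the line. Around LAMP3 in H1975 the median of the neighbours was -0.19, against -1.37 for LAMP3 itself.

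Across the 12 libraries, with the mean of each line subtracted, SFTPA2 and SFTPA1 followed SFTPB most closely among the members (Pearson r of 0.992 and 0.988), then NAPSA (0.866), ABCA3 (0.585), NKX2-1 (0.319) and LAMP3 (-0.186). These are descriptions over libraries that share lines and groups, and they rest mainly on HCC827, where SFTPB varied. The 5 genes outside the members whose pattern was most like that of SFTPB were CEACAM5 (0.988), GPR143 (0.988), TRIM45 (0.984), EIF4E1B (0.984) and PLEKHS1 (0.983). CEACAM5, a cell surface glycoprotein of many carcinomas, stood at 4.21 ± 0.449 FPKM in the HCC827 controls and 11.0 ± 1.48 FPKM with ZNF263 (SD, n = 2). PLEKHS1 stood at 9.01 ± 0.573 against 14.4 ± 0.411 FPKM, and the other 3 of these genes had control means under 2 FPKM.

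Other markers of the alveolar type 2 cell were examined in the same fit, as genes that were not among the 9. Of 18 listed, 11 were tested in HCC827. Of these, 5 rose, 1 fell and 5 missed the threshold, beside 13.0% higher and 6.44% lower over all genes. Their median log2 difference was 0.14. LPCAT1, which remodels surfactant phosphatidylcholine, rose from 244 to 399 FPKM (log2 difference 0.71 ± 0.05; limma adjusted p = 4.50e-06). CTSH, a protease that also cuts the SFTPB precursor, rose from 28.3 to 43.6 FPKM (0.60 ± 0.10; limma adjusted p = 0.00107), and MUC1, a surface mucin, rose by 0.68 ± 0.10 (limma adjusted p = 0.000815). SFTA2, a surfactant-associated secreted protein gene, rose from 95.3 to 139 FPKM (0.55 ± 0.08; limma adjusted p = 0.000861), and SLC22A31 rose by 0.66 ± 0.10. SFTA2 and SLC22A31 were named after their values were seen. ETV5, a transcription factor of the FGF pathway, fell to 0.780 times its control level (limma adjusted p = 0.00512). With the line fitted alone ETV5 was not called (limma adjusted p = 0.102), and with a pseudocount of 0.1 FPKM SLC22A31 was not (limma adjusted p = 0.0584). SFTA3, which lies beside NKX2-1, had no value in HCC827 or H1975 and was near 0 in PC9.

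The same list was counted in H1975 and PC9. In H1975, 0 of 10 tested rose, 6 fell and 4 did not pass, beside 32.1% higher and 32.1% lower over all genes. Their median was -0.76 against 0.00254 over all genes tested. CTSH fell from 39.4 to 6.60 FPKM (log2 difference -2.41 ± 0.10; limma adjusted p = 3.55e-10), MUC1 from 30.0 to 10.7 FPKM (-1.40 ± 0.10; limma adjusted p = 9.62e-08) and LPCAT1 from 144 to 82.2 FPKM (-0.80 ± 0.05; limma adjusted p = 1.98e-08). In PC9, 3 of 11 tested rose and 3 fell, beside 7.21% higher and 4.12% lower over all genes. MUC1 was up by 0.71 ± 0.10 (limma adjusted p = 0.000694, and 0.0689 with the line fitted alone) and CPM by 0.44 ± 0.07 (limma adjusted p = 0.00143). SDC4 was down to 0.659 times its control level. The F test of whether a difference varied between lines called 60.4% of all genes, and for CTSH, MUC1 and LPCAT1 it gave limma adjusted p of 2.23e-09, 7.82e-08 and 6.84e-09. In H1975 CTSH, MUC1 and LPCAT1 fell in the libraries in which LAMP3 was lower, while ABCA3, at 0.921 times its control level, was not called.

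Transcription factors of lung epithelium, which include the FOXA partners of NKX2-1, had 19 of 21 listed genes tested in HCC827. Of these, 7 rose, 1 fell and 11 missed the threshold, beside 13.0% higher and 6.44% lower over all genes. FOXA1 stood at 14.2 and 16.5 FPKM in the controls and at 23.2 and 19.6 FPKM with ZNF263 (log2 difference 0.45 ± 0.12; limma adjusted p = 0.0220). FOXA2 was low, at 1.99 and 1.45 against 2.97 and 2.46 FPKM (0.45 ± 0.10; limma adjusted p = 0.00993). Both FOXA calls were lost when ZNF263 replicate 1 was left out (limma adjusted p = 0.193 for FOXA1 and 0.108 for FOXA2). FOXA1 also missed the threshold without control replicate 1 (limma adjusted p = 0.143) and with a replicate block (limma adjusted p = 0.0526), and FOXA2 missed it without control replicate 2 (limma adjusted p = 0.0566). With the line fitted alone neither passed (limma adjusted p = 0.0738 and 0.0907), nor did FOXA1 with a pseudocount of 0.1 FPKM (limma adjusted p = 0.206) or with no filter (limma adjusted p = 0.0651). EHF, an ETS factor of epithelia, rose from 1.34 to 3.13 FPKM (0.82 ± 0.07; limma adjusted p = 1.90e-05). CEBPA, a factor of type 2 cell maturation, stayed under 0.4 FPKM in every HCC827 library.

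In H1975, 4 of 21 tested factors rose, 10 fell and 7 did not pass, beside 32.1% higher and 32.1% lower over all genes. FOXA2 fell from 7.14 to 0.794 FPKM (log2 difference -2.18 ± 0.10; limma adjusted p = 1.88e-09), EHF from 7.67 to 0.980 FPKM (-2.13 ± 0.07; limma adjusted p = 9.97e-11) and FOXA1 from 1.40 to 0.339 FPKM (-0.84 ± 0.12; limma adjusted p = 5.00e-05), whereas GATA6 and CEBPD were among those that rose (GATA6 by 1.20). In PC9, 5 of 21 rose and 0 fell, beside 7.21% higher and 4.12% lower over all genes. The largest rises were those of EHF (1.05 ± 0.07; limma adjusted p = 1.84e-06) and CEBPD (0.58 ± 0.05; limma adjusted p = 1.93e-05). FOXA1 (0.33 ± 0.12) and FOXA2 (-0.13 ± 0.10) did not pass.

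**Figure D4:**
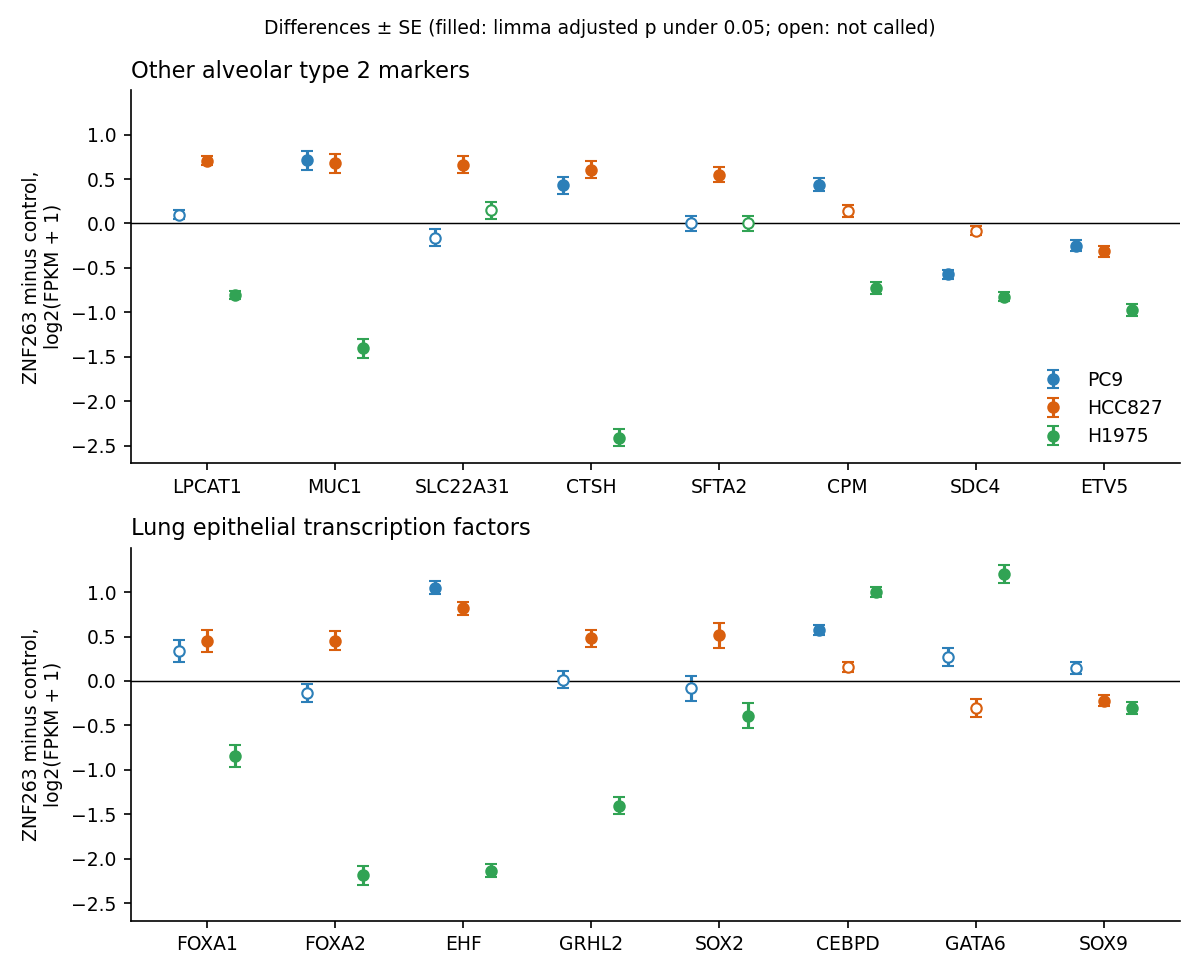
Difference between ZNF263 and control on the log2(FPKM + 1) scale with error bars of 1 SE for 8 other type 2 markers (top) and 8 lung epithelial transcription factors (bottom), coloured by line and filled where limma called the gene. LPCAT1, MUC1, CTSH, FOXA1, FOXA2 and EHF are filled above 0 in HCC827 and below 0 in H1975.

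Genes of the machinery around the surfactant proteins were examined as well, beside the shares of 13.0% higher and 6.44% lower over all genes in HCC827. Of 22 genes of surfactant lipid synthesis, 21 were tested in HCC827, where 3 rose and 3 fell, with a median log2 difference of -0.01. FABP5, a fatty acid binding protein gene, fell from 68.0 to 42.6 FPKM (limma adjusted p = 8.98e-05). Of 23 genes of lamellar body and lysosome-related organelle biogenesis, all were tested, 1 rose, 0 fell and 22 did not pass (median 0.05), and the one that rose was LAMP2, by 0.40 ± 0.06 (limma adjusted p = 0.00124). In H1975, with 32.1% higher and 32.1% lower over all genes, the same lists gave 6 higher and 9 lower of 21, and 6 higher and 9 lower of 23. Among the lower ones was RAB38, a small GTPase of lamellar body formation, which fell from 5.86 to 0.716 FPKM (limma adjusted p = 1.04e-09). In PC9, with 7.21% higher and 4.12% lower over all genes, these lists gave 2 higher and 1 lower of 21, and 0 higher and 1 lower of 23.

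Markers of other lung cell types also differed in HCC827, beside the surfactant genes. Over all genes tested in the line, 13.0% were called higher and 6.44% lower. Of 9 tested alveolar type 1 markers 5 rose and 1 fell, with AQP5, a water channel, up by 0.91 ± 0.15 (limma adjusted p = 0.00132) and CAV1, a caveola protein gene, down to 0.709 times its control level (limma adjusted p = 0.000844). With the line fitted alone neither of these was called (limma adjusted p = 0.0569 and 0.0544). In that fit HOPX and GPRC5A, also among the 5 that rose, were not called either (limma adjusted p = 0.0751 and 0.102). AQP5 would also not have passed the filter without its HCC827 ZNF263 libraries. Of 14 listed airway secretory markers 6 were tested, of which 3 rose and 1 fell. Of 6 tested among 11 ciliated cell markers 1 rose, and of 4 among 10 basal and squamous markers 3 rose. Of 4 tested among 14 gastric and intestinal markers 1 rose, which was VIL1. Like AQP5, VIL1 would not have passed the filter without its HCC827 ZNF263 libraries, so the filter partly sets that count. The 3 basal markers were SOX2, TP63 and SERPINB5, and with the line fitted alone none was called (limma adjusted p = 0.129, 0.0819 and 0.133). The lists share genes, so their counts are not separate. SOX2 and HOPX were also counted among the transcription factors, and LPCAT1 among both the type 2 markers and the lipid synthesis genes. SERPINB5 also missed the threshold under both rescalings of the line and with no filter. In PC9, where the surfactant protein genes were at or near 0, all 6 tested airway secretory markers rose, beside 7.21% higher over all genes. Of the 14 listed, 8 stayed under 1 FPKM in every PC9 library. MUC5B, a gel-forming mucin, had the largest rise, from 2.36 to 16.3 FPKM (2.37 ± 0.09; limma adjusted p = 7.51e-09). In H1975 the type 1, ciliated and basal lists gave 0 higher and 3 lower of 9, 0 and 3 of 6, and 1 and 3 of 4. The secretory list gave 1 higher and 2 lower of 6. Over all genes tested in H1975, 32.1% were called higher and 32.1% lower, and the list counts were not tested against these shares.

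Markers of cells of other lineages were measured in the same libraries. All 6 endothelial markers stayed under 1 FPKM in every library of all lines, with sums of 0.432 to 0.433 FPKM in the HCC827 controls and 0.243 to 0.386 FPKM with ZNF263. The 10 immune markers summed to 44.4 to 45.2 FPKM in the controls and 33.1 to 38.8 FPKM with ZNF263, most of it CD68 (41.5 and 32.9 FPKM), with 0 higher and 2 lower of 4 tested. The 8 fibroblast markers summed to 20.7 to 22.2 FPKM in the controls and 22.4 to 23.6 FPKM with ZNF263. COL3A1 was at 1.85 against 0.284 FPKM, and it passed the filter only through these ZNF263 libraries. In H1975, beside the lower LAMP3, the fibroblast list summed to 30.9 to 34.2 FPKM in the controls and 175.5 to 179.9 FPKM with ZNF263, most of it COL1A2, which rose from 14.6 to 166 FPKM (limma adjusted p = 6.89e-12). Of its 5 tested members 3 rose and 2 fell, beside 32.1% higher and 32.1% lower over all genes. The 2 that fell were LUM, from 1.84 to 0.132 FPKM (limma adjusted p = 4.82e-08), and COL1A1, from 15.9 to 9.28 FPKM (limma adjusted p = 2.04e-05). Of the 3 that rose, PDGFRB passed the filter only through H1975 ZNF263 libraries and COL3A1 only through those of HCC827. Nothing is read from this count. The part of these markers in the differences of the members was not tested.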

How the data were processed

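Values were deposited by the authors as FPKM, fragments scaled by gene length and library size, in 1 table with a column for each library. The build, per the submitters' processing notes, was GRCh38.p13, while aligner, counting tool, annotation and strand setting were not given in the sources used here. Libraries were assigned to groups by their titles. No column belonged to another sample, and 27 entries whose names had become dates were left out, which leaves 20003 genes.

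The FPKM values were whole multiples of the worth of 1 read for 100.0% of 15117 genes with a value above 0 in PC9, and for 15641 of 15642 such genes in HCC827 and H1975 (within 0.01 of a whole number). HCC827 and H1975 shared gene lengths and were solved together, PC9 alone. Reads are the smallest whole numbers that fit. Mean chi-square between paired libraries was 1.51 to 4.45, so no pair was a repeat of 1 library.

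Genes with at least 1 FPKM in 2 of 12 libraries were fitted with limma 3.58.1 in R 4.3.3 on log2(FPKM + 1), with 1 mean per group and a trended prior variance, and checked on simulated data. Adjusted p is Benjamini-Hochberg within a line, called under 0.05. The F test compared the 3 lines. Members and gene lists were chosen with earlier results of these data known. Named genes were the members, the called genes of each list with the largest changes whose groups did not overlap (up to 2 in each direction in each line), FOXA1, FOXA2, CEBPA and SFTA3, and the 5 genes most like SFTPB, from which the text takes those that bear on the members. Alternatives were another pseudocount, no filter, 2 rescalings, a replicate block, a fit of 1 line alone, leaving out each library, and subtracting the 20 nearest genes. Promoter sequences are RefSeq's on GRCh38.p14.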

Additional observations from a re-analysis of the deposited data

Results flagged for a closer look

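ABCA3, the lipid transporter of the lamellar body, was higher in both ZNF263 libraries than in both controls in PC9 and in HCC827, and lower in both in H1975. The log2 difference in PC9 was 0.35 above that in H1975, and the one in HCC827 was 0.34 above it. This difference between lines was not tested, because ABCA3 is one of the genes chosen on these contrasts.

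Among 57 other named genes tested in all lines, 17 were called in opposite directions in different lines with a limma F adjusted p under the threshold. Over all 12218 genes tested in all lines this held for 1034 (8.46%), but the named genes were picked for large called changes in each direction, so the counts are not comparable. Of the type 2 markers these were MUC1 (limma F adjusted p = 7.82e-08), CPM (1.49e-06), LPCAT1 (6.84e-09) and CTSH (2.23e-09). Of the transcription factors they were EHF (2.22e-10), FOXA2 (2.55e-08), FOXA1 (4.27e-05) and SOX2 (0.00467), and of the lipid synthesis genes CHPT1 (0.00114) and PEMT (1.95e-06). The others were EMP2 (1.60e-07) and GPRC5A (0.000995) of the alveolar type 1 list, SLPI (1.68e-08) and AGR2 (4.89e-09) of the airway list, FOXJ1 (1.12e-05) of the ciliated list, and TP63 (4.64e-09) and SERPINB5 (4.66e-09) of the basal list. CHPT1 and SLPI were called lower in 2 lines, PEMT was lower in HCC827 and higher in H1975, GPRC5A was lower in PC9 and higher in HCC827, and the others were lower in H1975 and higher in PC9, HCC827 or both. With 1 library left out, at least 1 call was lost for CHPT1, SOX2 and SLPI in H1975 or HCC827, for FOXA1, FOXA2, GPRC5A, SERPINB5 and TP63 in HCC827, and for CHPT1, CTSH, GPRC5A and TP63 in PC9, whereas MUC1, CPM, LPCAT1, EHF, PEMT, EMP2, AGR2 and FOXJ1 kept their calls in each line without each library of it.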

How the results depend on the processing

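The direction of SFTPB, SFTPA1, SFTPA2 and NAPSA in HCC827 and of LAMP3 in H1975 was the same under every alternative run, with ranges of 1.36 to 1.75, 1.16 to 1.76, 2.07 to 2.64, 0.43 to 0.72 and -2.64 to -1.19. The number of members called moved more than 1.5-fold in PC9 from 2 to 1 with no filter or with the replicate block, to 0 with quantile normalization or with the line fitted alone, and to between 0 and 1 without 1 library. In HCC827 it moved from 5 to between 3 and 5 without 1 library, and in H1975 from 1 to 2 (SFTPB added) with a pseudocount of 0.1 or with the line fitted alone. Over all genes, the line fitted alone called 407 in PC9 against 1430 and 634 in HCC827 against 2386, and leaving out 1 library gave 591 to 854 in PC9 and 1082 to 3109 in HCC827, the lowest without ZNF263 replicate 1. Calls among 164 listed genes stayed within 1.5-fold under the 4 alternatives run for them. Same-numbered libraries of a line did not deviate together (correlations of 0.035, 0.10 and -0.06 in PC9, HCC827 and H1975), so the numbers were not taken as pairs. With the replicate block 1364, 2262 and 7850 genes were called in those lines, against 1430, 2386 and 7870. The low reads of the surfactant protein genes in PC9 and H1975 limit what can be seen of them there. Calls of members and their numbers describe the fits and are no test of the members, which were chosen on these contrasts.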

Other observations

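SFTPC reached 1.85 FPKM in 1 ZNF263 library of H1975 (105 reads) and was listed at 0 in the other 3 libraries of that line. Over all genes of the table, 2 had at least 1 FPKM in 1 library of a line and 0 in its other 3, SFTPC in that library and CTAG1A in ZNF263 replicate 1 of HCC827. This search was made after the SFTPC values were seen.

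ZNF263 was 1.57-fold above the controls in HCC827, 4.19-fold in PC9 and 3.98-fold in H1975, so the line with the smallest excess of ZNF263 was the one with the largest differences in SFTPB, SFTPA1 and SFTPA2. With 3 lines, and control levels of these genes that differ between them, this order was not tested.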
